A study of Mus musculus with 6 samples.

Results

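The genes here were grouped as proteases of the gelatinase (tertiary) granules of neutrophils, both lysozymes and a set of protease inhibitors, with 1 arginase. They were chosen by name as the rows of the deposited expression table listed as Mmp8, Mmp9, Mmp25, Adam8, Timp2, Slpi, Lyz1, Lyz2, Arg2 and Wfdc21, which gave 10 of 52636 rows, each found once. In which granule each protein is stored was not measured. The libraries came from bone marrow neutrophils of C57BL/6N mice aged 10 weeks. Of the 6 libraries, 3 carried the genotype label WT and 3 the label LRP5f/f/Lyz2Cre+, called LRP5-null here, in which both Lrp5 alleles are floxed and Cre recombinase is expressed from the Lyz2 locus. Cre from Lyz2 is active in monocytes and macrophages as well as in neutrophils, and whether the mice held 1 or 2 copies of the Cre allele is not given in the sources used here. It is likewise not given there whether the WT mice carried floxed Lrp5 alleles. The labels do not say that each library came from a separate mouse, so the p-values below measure the spread between these libraries, which may be technical.

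Neutrophils store their proteases in granules that are made at successive stages of maturation in the marrow. Gelatinase granules are formed late and are released early, as the cell leaves a blood vessel, and their matrix metalloproteinases cut collagen and gelatin. Lysozyme cleaves the peptidoglycan of bacterial cell walls and is found in several granule types. Mice have 2 lysozyme genes side by side, Lyz2 in myeloid cells and Lyz1 best known from Paneth cells of the intestine. Because Lyz2 is the site into which Cre was placed, the question addressed here is whether the other genes moved with Lyz2 in the libraries labelled LRP5-null.

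Expression was read as TPM, a unit per transcript length that sums to 1000000 in each library, so levels can be set side by side between genes. Total reads per library ranged from 249841492 to 340580330. Lrp5 itself was at 1.12 to 1.42 TPM in the WT libraries and at 1.68 to 2.07 TPM in the libraries labelled LRP5-null (log2 fold change 0.31, limma adjusted p = 0.136), so this transcript was not lower in the latter, and directions are given as the labels state them. The Lrp5 value covers the whole gene and does not measure the floxed part by itself. Lyz2, the site of the Cre insertion, was lower in each of the 3 libraries labelled Lyz2Cre+ than in each WT library. Ribosomal RNA took 3.30% of reads in WT replicate 3 and 2.69% to 2.98% in LRP5-null, but 1.20% and 1.30% in the remaining WT libraries. Intronic reads made up 7.78% to 9% in WT and 10.62% to 11.23% in LRP5-null, and their part in the results was not tested. In its ribosomal RNA share WT replicate 3 thus stood apart from the other WT libraries and was nearer to LRP5-null. Results that depend on this replicate are given with and without it. In fits without it, the genotype label and the ribosomal RNA share cannot be told apart. Neutrophil identity was plain from the marker genes. The 16 rows of a neutrophil marker list, led by S100a9 and S100a8, summed to 403978 to 446845 TPM in WT and 433600 to 453544 TPM in LRP5-null. By limma 0 of the 16 were called, and 4 had an unadjusted p under 0.05, against 23.5% of all genes tested. Markers of B cells (led by Cd74 and Cd79b) and erythroid cells (Hbb-bs and Hba-a1) summed to at most 58.0 TPM in any library, with overlapping groups. Sums of 3 further lists were low but did not overlap. They were 11.6 to 13.7 TPM in WT and 16.0 to 17.7 TPM in LRP5-null for T and NK cells (led by Cd3d and Nkg7), 13.7 to 16.6 and 17.1 to 18.3 TPM for eosinophils, basophils and mast cells (Siglecf and Prss34), and 3.88 to 5.58 and 6.01 to 6.84 TPM for platelets (Gp9 and Pf4). Cd3d alone was at 10.1 ± 0.69 TPM in WT and 13.9 ± 0.56 TPM in LRP5-null (SD, n = 3 each). The T and NK cell sum therefore says little of the other markers on its list. Of these lists 0 genes were at 0 in all libraries, and their part in the results was not tested. Prg2, a major protein of eosinophil granules, was the 1 gene called among them, at 1.02 ± 0.16 TPM in WT and 2.79 ± 0.41 TPM in LRP5-null (SD, n = 3 each, limma adjusted p = 0.0341). Siglecf and Prss34, the most abundant of the eosinophil, basophil and mast cell list, had log2 fold changes of 0.03 and 0.004. Their groups overlapped, so the higher sum of that list did not come from them.

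All 10 genes had a mean over the 6 libraries of 1 TPM or more and were tested, among 9775 genes in all. Lyz2 was the 1 gene called, that is with an adjusted p under 0.05 in limma on log2(TPM + 1), and it was lower in the libraries labelled LRP5-null. Among all genes tested 0.532% were called, and 0.266% were called lower. The other 9 genes were not called, 4 of them with log2 fold changes below 0 and 5 above. Before adjustment, p was under 0.05 for Lyz2, Mmp8 and Arg2, 3 of the 10, against 23.5% of all genes. The 2 groups of libraries did not overlap for 4 of the 10, Lyz2 and Mmp8 (lower) and Arg2 and Wfdc21 (higher), against 29.7% of all genes, or 12.3% lower and 17.4% higher. The median log2 fold change of the 10 genes was 0.01, beside 0.04 for all genes tested.

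**Figure D1:**
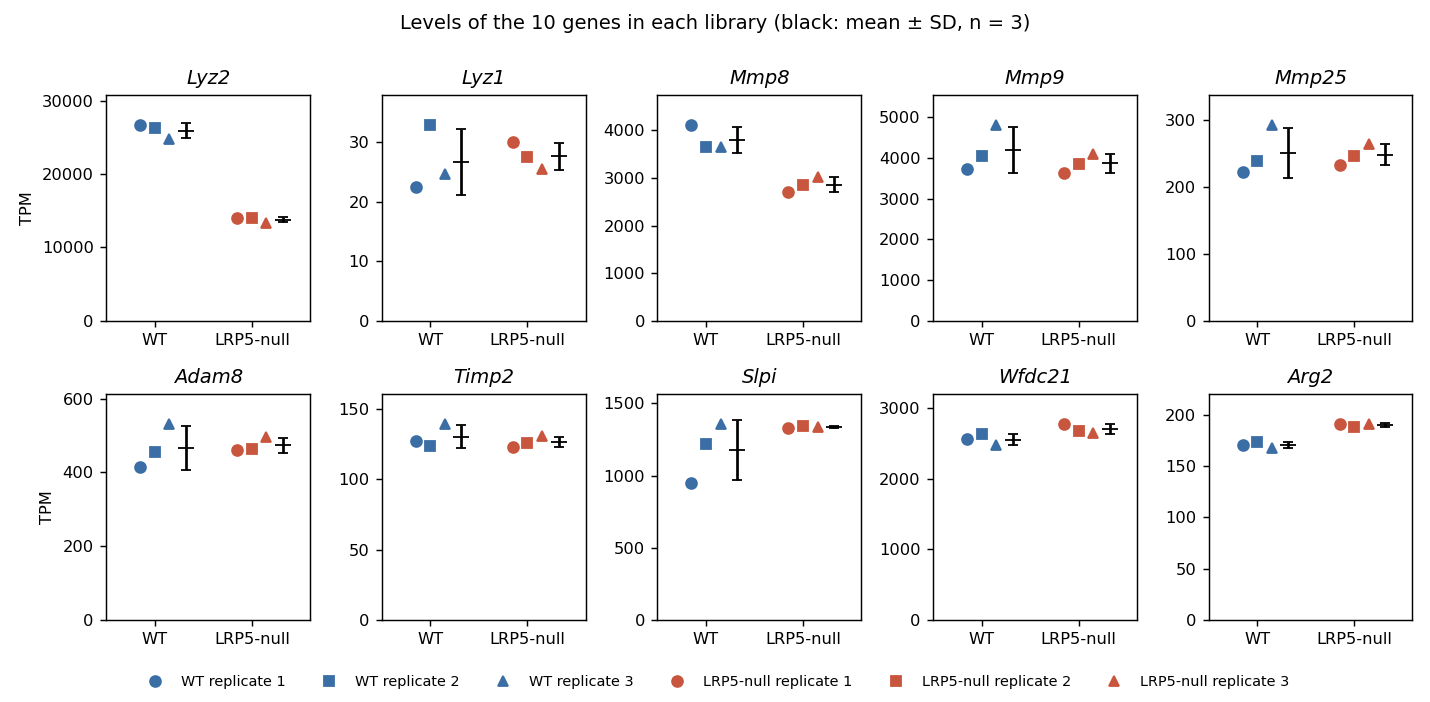
TPM (vertical axes, each from 0) of the 10 genes in the 3 WT libraries (blue) and the 3 libraries labelled LRP5-null (red), with the replicate shown by the symbol and the mean ± SD in black. Lyz2 fell from a mean of 25963 to 13792 TPM, Mmp8 lay lower in every library labelled LRP5-null, and for 6 genes the groups overlapped.

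Lyz2, which encodes lysozyme M, occupies positions 116714390 to 116719377 of chromosome 10 (NCBIM37, the mm9 build, minus strand). Its level was 26791, 26300.4 and 24796.5 TPM in WT replicates 1 to 3 and 14027, 13988.5 and 13359.7 TPM in LRP5-null replicates 1 to 3. Each library labelled LRP5-null was far below each WT library, and the ranges were 10769.6 TPM apart. The means were 25963 ± 1039 TPM in WT and 13792 ± 375 TPM in LRP5-null (SD, n = 3 each), which gave −0.91 ± 0.055 (SE) on the log2 scale with a limma adjusted p of 0.00351. On this scale the level in LRP5-null was 53.1% of WT, with a 95% interval of 48.6% to 58.1%. Lyz2 had the smallest p of all 9775 genes tested. In rank of mean level it went from place 4 among all genes in WT to place 7 in LRP5-null. In such bulk libraries a smaller share of cells that express a gene and less RNA per cell cannot be told apart. The label Lyz2Cre+ was on every LRP5-null library and on no WT library. The Cre insertion at Lyz2 and the loss of Lrp5 therefore cannot be told apart either.

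The call of Lyz2 did not depend on any 1 library. With each library left out in turn its log2 fold change stayed between −0.94 and −0.89, with limma adjusted p from 0.00117 to 0.0332. Against WT replicate 3 alone, a comparison added after the data were seen, it was −0.85 (limma adjusted p = 0.0273). Without any filter on low values the fold change was the same, but the limma adjusted p was 0.123 and the call was lost.

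Lyz1, the neighbouring copy, lies from 116724852 to 116729924 on the same strand. It was at 22.4, 33.0 and 24.6 TPM in WT and 30.0, 27.5 and 25.5 TPM in LRP5-null. The groups overlapped fully, with the highest and the lowest value both among the WT libraries. The log2 fold change of Lyz1 was 0.07 (95% interval −0.27 to 0.40, limma adjusted p = 0.812), an interval which does not reach the change of Lyz2.

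The ratio of Lyz2 to Lyz1 was 1196, 797 and 1007 in the WT libraries and 468, 509.6 and 524 in those labelled LRP5-null, without overlap. On the log2 scale this ratio differed by −0.98 (exact permutation test, two-sided, p = 0.1, which is the smallest p possible with 3 against 3). The summed level of both genes, which depends little on how reads that match both were divided, was 25989 ± 1040 TPM in WT and 13819 ± 377 TPM in LRP5-null (SD, n = 3 each, exact permutation test, two-sided, p = 0.1). Lyz2 made up nearly all of this sum, so its p adds nothing to the comparison of Lyz2 alone. The annotated transcripts of both genes were identical at 96.0% of 1263 aligned positions in GENCODE M1. The deposited summary gives a read length of 94 bases and the methods one of 75. Of the windows of the Lyz1 transcript, 3.07% occur unchanged in that of Lyz2 at 94 bases, 6.22% at 75 bases and 16.0% at 50 bases. How reads from such stretches were divided is not given in the sources used here. Lyz1 values are therefore uncertain, the more so as Lyz2 was at least 468 times as abundant in every library.

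The sequences before the start sites of both genes are printed because Lyz2 and its copy differed so widely in level and in change. The 250 bases upstream of each are from RefSeq on GRCm38.p6, Lyz2 at chr10:117282273-117282522 and Lyz1 at chr10:117292869-117293118, both on the minus strand and written 5′ to 3′ toward the start. Capitals mark bases that do not match in a pairwise alignment of the 2 sequences.
Lyz2: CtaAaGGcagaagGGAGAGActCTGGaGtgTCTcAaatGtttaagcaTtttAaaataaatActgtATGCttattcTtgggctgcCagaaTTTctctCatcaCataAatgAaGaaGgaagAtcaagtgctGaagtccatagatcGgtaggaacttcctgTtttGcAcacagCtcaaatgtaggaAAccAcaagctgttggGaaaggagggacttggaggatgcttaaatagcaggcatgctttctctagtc
Lyz1: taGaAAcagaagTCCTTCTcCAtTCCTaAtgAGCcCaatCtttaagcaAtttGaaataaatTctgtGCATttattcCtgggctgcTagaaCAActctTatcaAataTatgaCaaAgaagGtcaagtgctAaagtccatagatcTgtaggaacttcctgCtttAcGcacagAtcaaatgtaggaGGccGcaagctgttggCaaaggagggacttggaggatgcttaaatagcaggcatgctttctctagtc
The pair matched at 200 of 248 aligned positions (80.6%), and at 92 of the 100 nearest the start. Matches to AGGAA, the core letters bound by ETS family factors, were sought on both strands in these 250 bases, and each of the lysozyme genes had 4. At least 1 such match was held by 60.2% of the 27025 promoters in the table. For TTNNGNAA, a loose C/EBP motif, Lyz2 and Lyz1 had 1 match each, against 36.9% of promoters with at least 1, and for TATAAA both had 0, against 13%. A TTNNGNAA match may itself contain an AGGAA match. Promoters of 7 of the 10 genes were in the table. Of the other 5, Mmp8 had 1 AGGAA and 2 TTNNGNAA matches, Slpi 1 and 3, Mmp25 2 and 0, Adam8 0 and 1, and Timp2 0 and 0. The lysozyme pair thus held the same motif counts in this window although their levels differed.

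Genes on both sides of Lyz2 were examined next, since the Cre insertion marks this stretch of chromosome 10. In GENCODE M1, 22 other protein-coding genes start within 1000 kb of the start of Lyz2, and 12 of them passed the filter. Their log2 fold changes had a median of 0.04, beside 0.04 for all genes, with 7 above 0 and 5 below. Mdm1, a centriole gene 859 kb away, was the 1 called, and it was higher in LRP5-null. It was at 15.9, 15.4 and 16.4 TPM in WT and 21.4, 23.0 and 22.1 TPM in LRP5-null (log2 fold change 0.45 ± 0.070 SE, adjusted p = 0.0476 in limma). The groups were well apart, but the call was kept only in the fit without WT replicate 3 (limma adjusted p = 0.0123) among the 6 that left out a library, and in the other 5 the limma adjusted p was 0.103 to 0.233.

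Mdm2, which encodes the ubiquitin ligase for p53, lies 428 kb away and was at 94 to 104 TPM in WT and 80 to 83 TPM in LRP5-null, also without overlap (log2 fold change −0.25, limma adjusted p = 0.119). Without WT replicate 3 Mdm2 was called, with a limma adjusted p of 0.0322. In that fit 3 of the 12 neighbours were called, and 19.6% of all genes. With all libraries, the groups did not overlap for 3 of the 12 neighbours and for 29.7% of all genes. Cnot2, a subunit of the deadenylase complex, was at −0.26 on the log2 scale (limma adjusted p = 0.175). Rap1b, a small GTPase of integrin activation, had −0.40 (limma adjusted p = 0.215), and its WT values were spread from 541 to 920 TPM. Leaving out WT replicate 3 moved Rap1b to −0.60 and it was called (limma adjusted p = 0.0143), whereas against that replicate alone it was at 0.01. The tested genes nearest to Lyz2 besides Lyz1 were Yeats4 at 58 kb, with a log2 fold change of 0.23 (standard error 0.20), and Cpsf6 at 95 kb, with 0.07 (standard error 0.073), neither of them called. The remaining 5 neighbours, Rab3ip, Cct2, Frs2, Slc35e3 and Nup107, had log2 fold changes between −0.11 and 0.12. The fold change of Lyz2 lay below the 95% interval of each of the 12 neighbours tested.

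**Figure D2:**
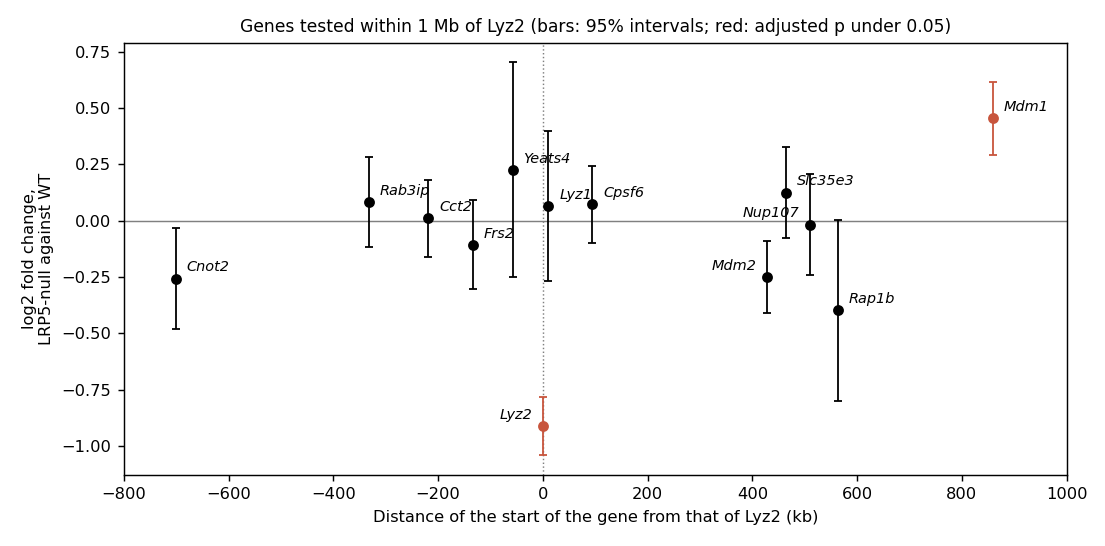
Log2 fold change of LRP5-null against WT (vertical axis, with 95% intervals) for Lyz2 and the 12 other genes tested within 1000 kb, by the distance of each start site from that of Lyz2 in kb (horizontal axis). Lyz2 at −0.91 stands below all neighbours, and Mdm1 at 0.45 is the other called gene (red).

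Mmp8, neutrophil collagenase, cuts fibrillar collagen and lies on chromosome 9 from 7558429 to 7568486. It was at 4124, 3646 and 3651 TPM in WT and 2703, 2846 and 3022 TPM in LRP5-null. Every library labelled LRP5-null was lower than every WT library, and the ranges were 624.4 TPM apart. The means were 3807 ± 275 TPM and 2857 ± 160 TPM (SD, n = 3 each), and the fitted level in LRP5-null was 75.1% of WT, with a 95% interval of 66.7% to 84.6%. With −0.41 ± 0.074 (SE) on the log2 scale and a limma adjusted p of 0.0648, Mmp8 was not called. It was called when WT replicate 3 was left out (−0.44, limma adjusted p = 0.0181), when 19.6% of all genes were called as well. Mmp8 was also called once the dependence on GC content and length was taken out (−0.30, limma adjusted p = 0.0349), a fit in which 4.85% of genes were called. In the 5 fits that left out another library, the limma adjusted p was 0.117 to 0.258.

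Mmp9, gelatinase B, is the namesake enzyme of the gelatinase granule and lies on chromosome 2 from 164766280 to 164781350. Its levels were 3726, 4040.05 and 4819 TPM in WT and 3626, 3857 and 4105 TPM in LRP5-null. The groups overlapped, and the highest value was that of WT replicate 3. The log2 fold change was −0.11 (95% interval −0.35 to 0.12, limma adjusted p = 0.526), and without WT replicate 3 it was −0.01. The ratio of Mmp9 to Mmp8, set out after the values were seen, was 0.903, 1.11 and 1.32 in WT and between 1.34 and 1.36 in LRP5-null. Mmp9 and Mmp8 were at similar levels in WT, where their ranges overlapped, and Mmp9 was above Mmp8 in every library labelled LRP5-null.

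Mmp25, a metalloproteinase anchored in the membrane (MT6-MMP), lies on chromosome 17 from 23766425 to 23782236. It was at 222, 238 and 293 TPM in WT and 233, 246 and 264 TPM in LRP5-null (log2 fold change −0.01, 95% interval −0.27 to 0.25, limma adjusted p = 0.963). Adam8, a membrane-bound sheddase of leukocytes, lies on chromosome 7 from 147164831 to 147178461. It was at 414, 455 and 533 TPM in WT and 461, 463 and 495 TPM in LRP5-null (log2 fold change 0.03, 95% interval −0.20 to 0.25, limma adjusted p = 0.893). For both genes the lowest and the highest library were WT replicates 1 and 3, with the libraries labelled LRP5-null between them. Their fold changes altered sign under other scalings and with some libraries left out, so no direction can be given for either.

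**Figure D3:**
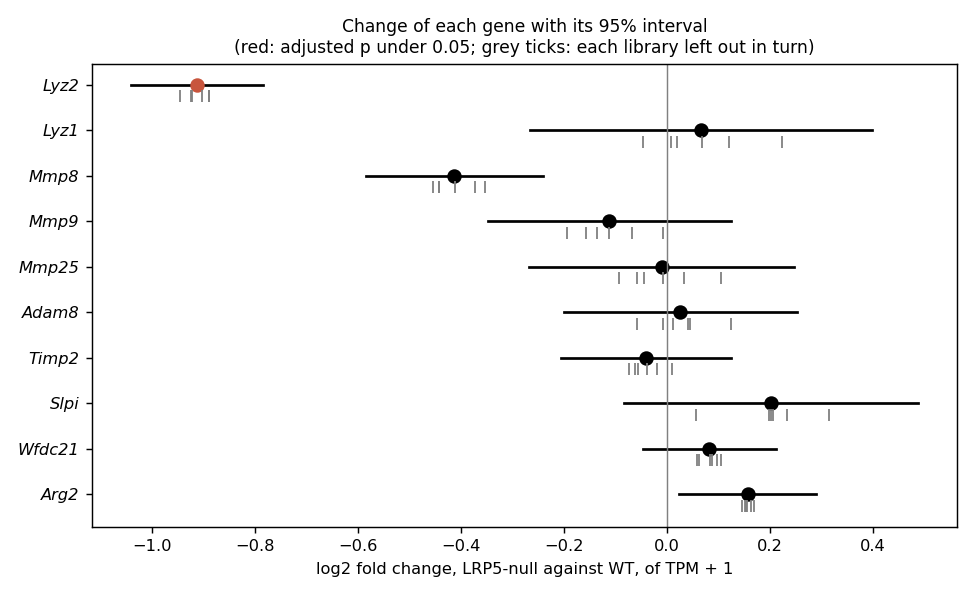
Log2 fold change of TPM + 1 in LRP5-null against WT (horizontal axis) for each of the 10 genes, with 95% intervals from limma as bars and the 6 fits that each left out a library as grey ticks. Lyz2 at −0.91 is the called gene (red), Mmp8 at −0.41 and Arg2 at 0.16 have intervals off 0, and the intervals of the other 7 include 0.

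The 95% intervals of the inhibitors did not reach the change of Lyz2. Timp2, an inhibitor of metalloproteinases, lies on chromosome 11 from 118162383 to 118217054 and was at 127, 124 and 139.5 TPM in WT and 123, 126 and 130.5 TPM in LRP5-null (log2 fold change −0.04, 95% interval −0.21 to 0.12, limma adjusted p = 0.759). Slpi, an inhibitor of elastase and cathepsin G with WAP domains, lies on chromosome 2 from 164179806 to 164214831. Its levels were 951, 1216 and 1360.25 TPM in WT and 1332, 1344 and 1336 TPM in LRP5-null. The libraries labelled LRP5-null were nearly equal, whereas the WT libraries spanned a range that took them in. The log2 fold change of Slpi was 0.20 (95% interval −0.08 to 0.49, limma adjusted p = 0.352), 0.31 without WT replicate 3 (limma adjusted p = 0.0723) and −0.02 against that replicate alone. This value thus turned on which WT libraries entered.

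Wfdc21, which encodes a small secreted WAP domain protein, is annotated in GENCODE M1 as 1100001G20Rik, on chromosome 11 from 83560442 to 83566144. It was at 2556, 2630.49 and 2469.77 TPM in WT and 2779.57, 2681 and 2641 TPM in LRP5-null. The groups were just apart, by 10.9 TPM. Its log2 fold change was 0.08 (95% interval −0.05 to 0.21, limma adjusted p = 0.399), so no change was called.

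Arg2, the mitochondrial arginase, hydrolyses arginine to ornithine and urea and lies on chromosome 12 from 80231764 to 80257288. It was at 170.3, 173 and 168 TPM in WT and 192, 188 and 191 TPM in LRP5-null. All libraries labelled LRP5-null were higher, and the coefficients of variation were 1.55% in WT and 0.924% in LRP5-null. Its log2 fold change was 0.16 (95% interval 0.02 to 0.29), with a limma adjusted p of 0.169. It stayed between 0.15 and 0.17 with each library left out in turn, and its limma adjusted p did not go under 0.0895 in those fits.

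Taken by level, the order of the 10 genes was the same in both groups. Lyz2 was highest, then Mmp9, Mmp8, Wfdc21, Slpi, Adam8, Mmp25, Arg2, Timp2 and Lyz1, with means from 25963 to 26.7 TPM in WT and from 13792 to 27.6 TPM in LRP5-null. Neighbours in this order were apart in every library of a group, except Mmp9 and Mmp8 in WT and Mmp8 and Wfdc21 in LRP5-null, whose ranges overlapped. The 10 genes together made up 3.87% ± 0.044 of all TPM in WT and 2.56% ± 0.014 in LRP5-null (SD, n = 3 each). Without Lyz2, the other 9 summed to 12313, 12556 and 13458 TPM in WT and 11478, 11780 and 12211 TPM in LRP5-null. The difference of these means was −953 TPM, and the difference of Mmp8 alone was −950.2 TPM. These are close because the rest went both ways, the largest being Mmp9 at −332 TPM against Slpi at 162 and Wfdc21 at 149 TPM.

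**Figure D4:**
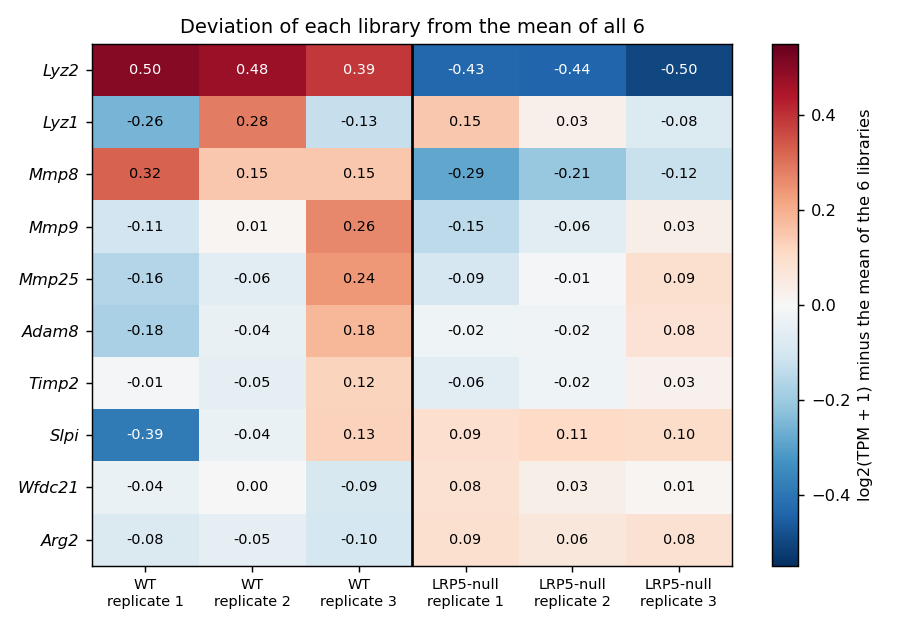
Log2(TPM + 1) in each library minus the mean over the 6 libraries, for the 10 genes (rows) in the 6 libraries (columns, WT left of the black line). Lyz2 splits the groups from 0.50 to −0.50, whereas Mmp9, Mmp25, Adam8, Timp2 and Slpi are highest in WT replicate 3.

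Differences between libraries did not all follow the labels. Mmp9, Mmp25, Adam8, Timp2 and Slpi, 5 of the 10 genes, were highest in WT replicate 3, against 21.0% of all genes tested. Of the 10, 4 were lowest in WT replicate 1, against 33.6% of all genes. The spread between WT libraries exceeded that between the libraries labelled LRP5-null in 10 of the 10 genes, and in 73.3% of all genes tested. Coefficients of variation ran from 1.55% (Arg2) to 20.9% (Lyz1) in WT and from 0.483% (Slpi) to 8.14% (Lyz1) in LRP5-null. WT replicate 3 differed from the other WT libraries in its share of ribosomal RNA reads, and the part of that share in these values was not tested beyond a fit that used it as a covariate. In that fit the log2 fold change was −0.87 for Lyz2 (limma adjusted p = 0.00675), −0.38 for Mmp8 (limma adjusted p = 0.127), −0.26 for Mmp9 (limma adjusted p = 0.138) and 0.04 for Slpi (limma adjusted p = 0.861).

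Other genes of the same families were counted from lists drawn up by name, and 0 of them were called in either direction. Without WT replicate 3, 1920 genes were called in all, 19.6% of those tested. Among them were 12 of these listed genes, 7 of the 12 from the tertiary granule list. Of 23 rows for other components of tertiary granules and their membranes, 23 were tested, 12 above 0 and 11 below. Their median log2 fold change was 0.02, and 7 had an unadjusted p under 0.05 in limma, against 23.5% of all genes tested. The 2 with the smallest p were Fpr1, a formyl peptide receptor (−0.31, limma adjusted p = 0.0675, 792 ± 21 TPM in WT and 640 ± 23 TPM in LRP5-null), and Itgax, which encodes CD11c (0.56, limma adjusted p = 0.0754, 8.23 ± 1.34 and 12.6 ± 0.68 TPM). Among 22 other metalloproteinase and TIMP genes with Reck, 3 were tested, Reck and Mmp23 with log2 fold changes of 0.07 and 0.27 (limma adjusted p = 0.649 and 0.232) and Mmp27 with 0.05, 0 of them with an unadjusted p under 0.05, and 8 were at 0 in every library. The matrix metalloproteinase transcripts of these neutrophils, ADAM genes not counted, were therefore mostly those of Mmp8, Mmp9 and Mmp25. The other 22 genes, led by Reck, an inhibitor, summed to 21.0 to 24.7 TPM over the 6 libraries.

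Of 14 other ADAM and ADAMTS genes, 6 were tested, 2 with an unadjusted p under 0.05 in limma. For this list and those below, the share of all genes tested with such a p was 23.5%. Adam10, a widely used sheddase, was at 46.7 ± 4.92 TPM in WT and 35.9 ± 2.07 TPM in LRP5-null (log2 fold change −0.37, limma adjusted p = 0.106), and Adamts10 was at 8.33 ± 0.76 and 10.8 ± 1.13 TPM (0.34, limma adjusted p = 0.130). Of 22 other inhibitor genes, 7 were tested, 3 with such a p. Wfdc17, another WAP domain gene, was at 234 ± 6.43 TPM in WT and 183 ± 9.07 TPM in LRP5-null (log2 fold change −0.35, limma adjusted p = 0.0668), and Cstb, an inhibitor of cysteine cathepsins, was at 92.6 ± 1.47 and 107 ± 4.67 TPM (0.21, limma adjusted p = 0.137). In the list of arginine metabolism, 10 of 16 genes were tested, 2 with such a p, and the smallest p were those of Slc7a1, an arginine transporter (0.40, limma adjusted p = 0.118), and Oaz1, ornithine decarboxylase antizyme (0.45, limma adjusted p = 0.191). Arg1, the cytosolic arginase, was at 0 TPM in all 6 libraries, so Arg2 was the only arginase transcript listed above 0. Of 8 other lysozyme family genes, 7 were listed at 0 in every library and 0 were tested.

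Monocytes and macrophages also express lysozyme, so their markers were set beside Lyz2. The 15 marker genes, led by Ly6c2 and Cd14, summed to 892 to 1093 TPM in WT and 945 to 1025 TPM in LRP5-null, and the groups overlapped. Ly6c2 and Cd14, which neutrophils also express, made up 85.9% to 88.0% of this sum, so it says little of the other markers. Without both, a sum taken after the values were seen, the remaining 13 genes were at 116 to 132 TPM in WT and 125 to 144 TPM in LRP5-null, again with overlap. Of 11 genes tested 0 were called and 4 had an unadjusted p under 0.05 in limma, against 23.5% of all genes tested. These 4, named after their values were seen, were the macrophage genes Adgre1 (log2 fold change 0.36), C1qa (0.24), C1qb (0.44) and C1qc (0.33), each at higher values in all libraries labelled LRP5-null than in any WT library. Cx3cr1, too low to be tested, had lower values in all of them. Over the 11 genes the median log2 fold change was 0.04, beside 0.04 for all genes, with 7 above 0 and 4 below. None of the 15 was at 0 in all libraries. The part of these markers in the change of Lyz2 was not tested.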

How the data were processed

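The authors aligned reads to the mouse genome (mm9) and named the DESeq2 pipeline. They deposited TPM per gene and library, and the tool behind TPM is not given in the sources used here. A deposited read summary holds counts of reads and, in percent, their shares in introns and ribosomal RNA. The labels name a Percoll gradient for cell isolation, whereas the methods name a sort on CD11b and Ly6G. As TPM are not counts, no count test was used: limma 3.58.1 (R 4.3.3) was fitted to log2(TPM + 1) with its trend option, without covariates, and p was adjusted over all genes tested (Benjamini-Hochberg). Fold changes on this scale understate low genes, and TPM keeps no depth, so errors come from replicates alone. Single values were compared by two-sided exact permutation tests. Positions, GC content and length (89.7% of genes tested) came from GENCODE M1 (NCBIM37). Identifiers in the table are newer, and Wfdc21 was matched by its identifier. Both rows named Itgam were kept. Members and lists were chosen with earlier results of these data known. Genes named are the 10 members, Lrp5, the tested neighbours of Lyz2, from each family list the called genes and the 2 of smallest p, and from each cell type list the 2 most abundant. Mmp27, Prg2, Arg1, Cx3cr1, Adgre1 and the C1q genes fall outside this rule and were named after their values were seen. Alternatives changed the pseudocount (to 0.1), the filter (absent, or 5 TPM), the scaling, the trend option, the libraries (each left out), the ribosomal share as a covariate, a replicate block, and GC and length trends. A total without Lyz2 and WT replicate 3 as sole control were added after seeing the data.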

Additional observations from a re-analysis of the deposited data

Results flagged for a closer look

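The share of reads in introns, a column of the read summary that no comparison of expression above uses, was higher in LRP5-null. It was 10.93% ± 0.31 there and 8.46% ± 0.62 in WT (SD, n = 3 each). It is given here because every library labelled LRP5-null lay above every WT library. That choice fixes the two-sided exact permutation p at 0.1, the smallest possible with 3 against 3, so the p adds nothing. The part of this share in the levels of the granule genes was not tested.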

How the results depend on the processing

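Lyz2 stayed lower under all 18 alternatives and was called in 17 of them, the exception being the fit with no filter. Over all genes, 52 calls became 3 with no filter, 29 with a mean of at least 5 TPM, 95 when rescaled without the most abundant genes (68 higher and 27 lower), 6 with the ribosomal share as a covariate, 425 with GC and length trends removed, 6 against WT replicate 3 alone, and 2 to 1920 with 1 library left out, the most without WT replicate 3. Of the 10 granule genes, 0 were called with no filter, 2 with GC and length trends removed and 1 to 2 with 1 library left out. Among neighbours of Lyz2, 0 were called with no filter, at 5 TPM, without the trend, with the ribosomal covariate, in the total without Lyz2 and against WT replicate 3 alone, and 0 to 3 with 1 library left out. In the fixed lists, 1 gene was called with median-ratio scaling, 3 with GC and length trends removed and 0 to 12 with 1 library left out. Same-numbered libraries had correlations of their deviations from group means of 0.229, −0.008 and 0.131, so the numbers were not taken to pair them, and a replicate block gave 4 calls in all and 0 among neighbours.

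Some fold changes changed sign. Most were near 0 in the main fit, but Rap1b (−0.40) and Slpi (0.20) were not, and both turned on WT replicate 3. Mmp25 was at 0.015 when rescaled without the most abundant genes, 0.011 after quantile normalization and −0.094 to 0.11 with 1 library left out. Adam8 was at −0.018 with median-ratio scaling, −0.11 with the ribosomal covariate, −0.072 with GC and length trends removed, −0.17 against WT replicate 3 alone and −0.058 to 0.12 with 1 library left out. With 1 library left out, Timp2 ran from −0.075 to 0.010, Lyz1 from −0.046 to 0.22, Cct2 from −0.030 to 0.049 and Nup107 from −0.062 to 0.067. Slpi was at −0.024 and Rap1b at 0.012 against WT replicate 3 alone. Rab3ip was at −0.0061 after quantile normalization, and Cct2 at −0.032 with median-ratio scaling and −0.0067 in the total without Lyz2. Nup107 was at 0.0064 when rescaled without the most abundant genes, 0.036 with the ribosomal covariate and 0.062 against WT replicate 3 alone. The cause of these changes was not tested.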
